A study of Arabidopsis thaliana with 4 samples.

Results

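The 10 genes through which Arabidopsis makes, degrades and imports proline were examined for open chromatin in root tips grown under osmotic stress and on control medium. They were listed by locus: P5CS1 (AT2G39800), P5CS2 (AT3G55610), P5CR (AT5G14800) and OAT (AT5G46180) for synthesis, ProDH1 (AT3G30775), ProDH2 (AT5G38710) and P5CDH (AT5G62530) for breakdown, and ProT1 (AT2G39890), ProT2 (AT3G55740) and ProT3 (AT2G36590) for transport. Each accessible region that overlapped the gene body or the 2 kb upstream of it was counted as a region of that gene, which gave 24 of the 27677 regions of the series. A peak had been called in all 4 libraries in 15 of these 24 regions, so that 9 of the 10 genes could be compared and ProT1 could not. Across the genome 18340 regions and 23645 of 37899 genes met the same condition.

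Plants were wild type Col-0, the reference accession, in both groups. The stress group had been grown for the same time on 1/2 MS medium with added sorbitol, a sugar alcohol that lowers the water potential of the medium, and the control group on 1/2 MS medium alone. Nuclei of the 5 mm root tip went into a droplet assay that reads RNA and transposase-accessible DNA from the same nucleus, with 2 libraries per group described as biological replicates. Whole root tips were used, so fewer nuclei of a cell type and less open chromatin per nucleus cannot be told apart.

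Proline is built mainly from glutamate: P5CS makes pyrroline-5-carboxylate, and P5CR reduces this intermediate to proline. In mitochondria ProDH oxidizes proline back to the intermediate and P5CDH turns that into glutamate, while OAT feeds the same intermediate from ornithine. Plants accumulate proline when water is scarce, with P5CS1 as the classic stress-inducible gene and ProDH1 as a gene that proline itself induces once stress is relieved. Accessibility of a gene is not its expression, and the RNA rows of the tables used here carry no gene names, so neither expression nor the tissue label was checked on RNA.

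The summed ATAC counts were 75473335 and 73248702 in the stress libraries and 47853119 and 71738704 in the control libraries, with 15302 and 14552 called nuclei against 6069 and 12068. In stress replicate 1 this exceeds the 15000 nuclei loaded, so some called barcodes cannot be separate nuclei. Control replicate 1 stood apart: its log2 region counts correlated at 0.934 with each stress library and at 0.958 with control replicate 2, whereas the 2 stress libraries correlated at 0.990. It also had the fewest peaks, 19858 against 24317 to 25001 in the others. Every pair of libraries shared cell barcodes, 124 to 342 of them, or 2.04% to 2.35% of the smaller library. How many would be shared at random was not worked out, so this does not show mixing of samples.

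Genes of synthesis and of breakdown are shown by the DNA in front of them, because these stretches hold the sequence features described beside the results. All are on the minus strand of TAIR10, written 5′ to 3′ from the reference genome, and none overlaps an annotated gene. Capitals mark a run shared by the P5CS genes in the first pair, and the letters ACTCAT or their reverse complement in the second pair.
P5CS1, the 200 bases before the gene start, chr2:16603320-16603519: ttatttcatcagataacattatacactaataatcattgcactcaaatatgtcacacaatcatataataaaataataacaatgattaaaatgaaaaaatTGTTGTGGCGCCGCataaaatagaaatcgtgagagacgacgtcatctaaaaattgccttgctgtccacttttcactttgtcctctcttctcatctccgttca
P5CS2, the 300 bases at the centre of its upstream region, chr3:20630214-20630513: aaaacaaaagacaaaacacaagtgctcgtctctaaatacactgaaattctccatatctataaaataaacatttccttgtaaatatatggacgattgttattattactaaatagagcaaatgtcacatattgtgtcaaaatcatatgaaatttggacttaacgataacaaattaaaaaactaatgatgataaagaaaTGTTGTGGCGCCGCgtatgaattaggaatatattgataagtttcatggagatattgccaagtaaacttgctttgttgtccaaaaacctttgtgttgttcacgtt
ProDH1, the 200 bases before the gene start, chr3:12451557-12451756: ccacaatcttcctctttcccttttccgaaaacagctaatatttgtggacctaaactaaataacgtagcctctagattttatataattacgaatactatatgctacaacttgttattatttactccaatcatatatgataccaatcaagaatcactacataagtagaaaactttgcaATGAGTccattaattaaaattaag
P5CDH, the 200 bases before the gene start, chr5:25103313-25103512: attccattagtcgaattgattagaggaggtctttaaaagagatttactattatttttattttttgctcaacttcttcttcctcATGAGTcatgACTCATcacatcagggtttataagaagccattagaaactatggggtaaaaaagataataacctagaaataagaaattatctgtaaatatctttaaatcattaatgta

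Was the chromatin of the proline genes as a group more or less open under stress? Accessibility was somewhat higher in stress at P5CS1, P5CS2 and P5CR, the direct route from glutamate to proline, by 1.13-fold to 1.17-fold, and lower at OAT, at 0.943-fold. For these 4 synthesis genes the libraries of the 2 groups did not overlap. None of them passed the test: 0 of the 9 genes had an adjusted p under 0.05 (edgeR quasi-likelihood test with Benjamini-Hochberg adjustment over all 23645 genes), where 0.863% of all genes did. At an unadjusted p under 0.05 there were 3 of 9 proline genes, against 21.8% of all genes. Groups of libraries did not overlap for 6 of the 9, close to the 57.3% of all genes. The median log2 difference was 0.09 over the 9 genes and 0.18 over the 4 synthesis genes, beside -0.0019 over all genes tested, and 7 of the 9 were positive where 49.4% of all genes were.

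**Figure D1:**
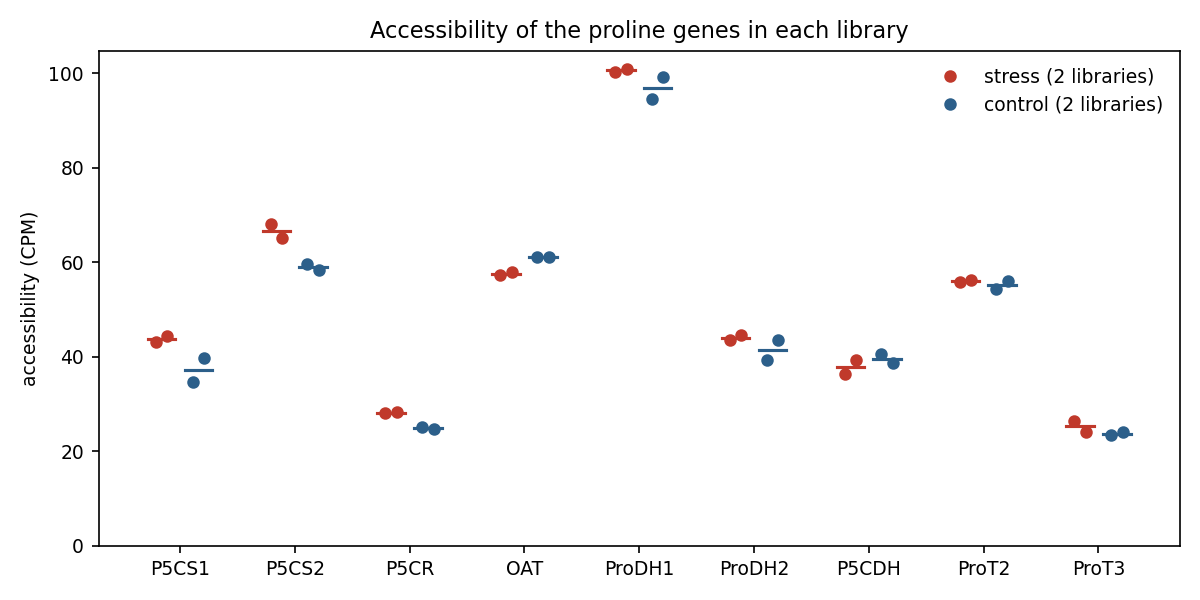
Accessibility of each testable proline gene in every library, in CPM on the vertical axis, with stress left of control. Points are libraries and bars are group means; P5CS1, P5CS2 and P5CR lay higher in both stress libraries than in both control libraries, OAT lay lower, and none of these differences passed the adjusted threshold.

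P5CS1, which encodes the stress-inducible form of the first enzyme of synthesis, had 43.05 and 44.34 CPM (counts scaled to the size of the library) in stress replicates 1 and 2 and 34.64 and 39.63 CPM in control replicates 1 and 2. Both stress libraries lay above both control libraries, and control replicate 1 was the lowest of the 4. The log2 difference was 0.23 ± 0.067 (SE; edgeR adjusted p = 0.125). Its size rested on the control libraries: without control replicate 1 it was 0.14 and without control replicate 2 it was 0.33. With 1 control library left, the spread was estimated from the 2 stress libraries alone, which correlated at 0.990. The spread between control libraries does not enter such a fit.

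Within the gene, the signal that could be tested came from the region over the start, chr2:16602847-16603734, which spans from 415 bases upstream to 472 bases into the gene and covers 60 coding bases. Of its 888 bases, 23.6% have a copy elsewhere in the genome, by the limits given below for P5CR. Its counts are therefore uncertain where reads could match several places. The region held 81.35 and 83.77 CPM in the stress libraries and 65.77 and 75.16 CPM in the control libraries. The log2 difference was 0.23 ± 0.071 (edgeR adjusted p = 0.132), 0.14 without control replicate 1 and 0.33 without control replicate 2. Among nuclei with at least 1000 fragments (80.7% and 81.6% of stress nuclei, 85.5% and 84.9% of control nuclei), each thinned to 1000, a fragment there was found in 5.97% and 6.22% of stress nuclei, against 5.42% and 5.45% of control nuclei, while the median region had 3.98% and 3.97% in stress against 4.52% and 4.00% in control. As deposited, without thinning, the shares were 14.1% and 14.6% in stress and 17.7% and 14.6% in control; the median nucleus held 3424 and 3494 cut sites in stress and 4851 and 3899 in control. A second region farther upstream, chr2:16604948-16605434, had no peak in stress replicate 1 and was not tested; it held 30.32 CPM in stress replicate 2 and 27.49 and 23.54 CPM in the control libraries.

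P5CS2 encodes the second form of the enzyme, which is known for housekeeping supply in dividing tissue. Its accessibility was 68.17 and 65.06 CPM in the stress libraries and 59.66 and 58.34 CPM in the control libraries. The groups did not overlap and the log2 difference was 0.18 ± 0.043 (edgeR adjusted p = 0.0995). Without control replicate 1 the value was 0.19 and without control replicate 2 it was 0.16, so here both control libraries gave nearly the same size.

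The 2 tested regions of P5CS2 had unlike values. The region upstream, chr3:20629947-20630780, runs from 1485 to 652 bases before the gene start and overlaps no gene. It had 82.81 and 81.15 CPM in the stress libraries and 68.97 and 68.78 CPM in the control libraries, with hardly any spread within either group. Its log2 difference, 0.25 ± 0.049, was the largest positive value and its adjusted p the lowest among the 15 tested proline regions (edgeR adjusted p = 0.0591). It was 0.25 without either control library, and past the threshold in both cases (edgeR adjusted p = 6.27e-05 without control replicate 1 and 2.11e-05 without control replicate 2). It was also among the more open regions of the genome, at percentile 89.6 of CPM per kb.

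The region over the annotated start of P5CS2, chr3:20628710-20629527, had 45.99 and 41.77 CPM in stress and 44.29 and 41.86 CPM in control, which overlap (log2 difference 0.03 ± 0.068). Its sign turned without stress replicate 1 and without control replicate 2. Another region in the gene body, chr3:20624736-20625596, had a peak in stress replicate 1 alone, at 25.44 CPM. The difference in response between the 2 tested regions was not tested.

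The 2 P5CS regions with the largest log2 differences share a stretch of sequence. The run TGTTGTGGCGCCGC, capitalised in the first pair of sequences, lies 102 to 89 bases before the start of P5CS1 and 1022 to 1009 bases before the annotated start of P5CS2. It is 14 bases long and occurs 2 times in the reference genome on either strand, at these positions. In P5CS1 it is inside the region over the start, and in P5CS2 it is inside the upstream region and not the region over the start. This was noticed after the values were seen, and where transcripts of P5CS2 begin in these roots was not analysed here.

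P5CR, which carries out the last step of synthesis, had 28.01 and 28.23 CPM in the stress libraries and 25.2 and 24.62 CPM in the control libraries. The spread within each group was small beside the gap between them, and the log2 difference was 0.18 ± 0.049 (edgeR adjusted p = 0.12). Without control replicate 1 it was 0.19 (edgeR adjusted p = 0.00466) and without control replicate 2 it was 0.16 (edgeR adjusted p = 0.0143). The gene has 1 region, chr5:4787498-4788454, over its start, where CPM was 52.93 and 53.34 in stress and 47.84 and 46.68 in control. This region also overlaps the 2 kb upstream of AT5G14810. Of its 957 bases, 86.1% have a copy elsewhere in the genome (at least 90% identity over at least 50 bases), so its counts are uncertain wherever reads could match several places.

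OAT, the enzyme that enters the pathway from ornithine, was the synthesis gene with a negative difference: 57.27 and 57.9 CPM in stress against 61.04 and 61.12 CPM in control, a log2 difference of -0.09 ± 0.038 (edgeR adjusted p = 0.247). This sign came from a region at the 3′ end, chr5:18717880-18718813, whose nearest gene start is that of AT5G46170. That region had 75.34 and 74.8 CPM in the stress libraries and 81.1 and 85.82 CPM in the control libraries (log2 difference -0.15 ± 0.054, edgeR adjusted p = 0.156), and was past the threshold without control replicate 1 (-0.19, edgeR adjusted p = 0.00138) and without control replicate 2 (-0.11, edgeR adjusted p = 0.0406). The region over the start of OAT, chr5:18721581-18722468, which also overlaps AT5G46190, had 32.88 and 34.59 CPM in stress and 34.78 and 30.1 CPM in control. These values overlap. When only regions near the gene start were summed, the sign for OAT turned, to a log2 difference of 0.06. The sign at the 3′ end turned as well once the covered width of the peaks was taken into account, to 0.06.

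**Figure D2:**
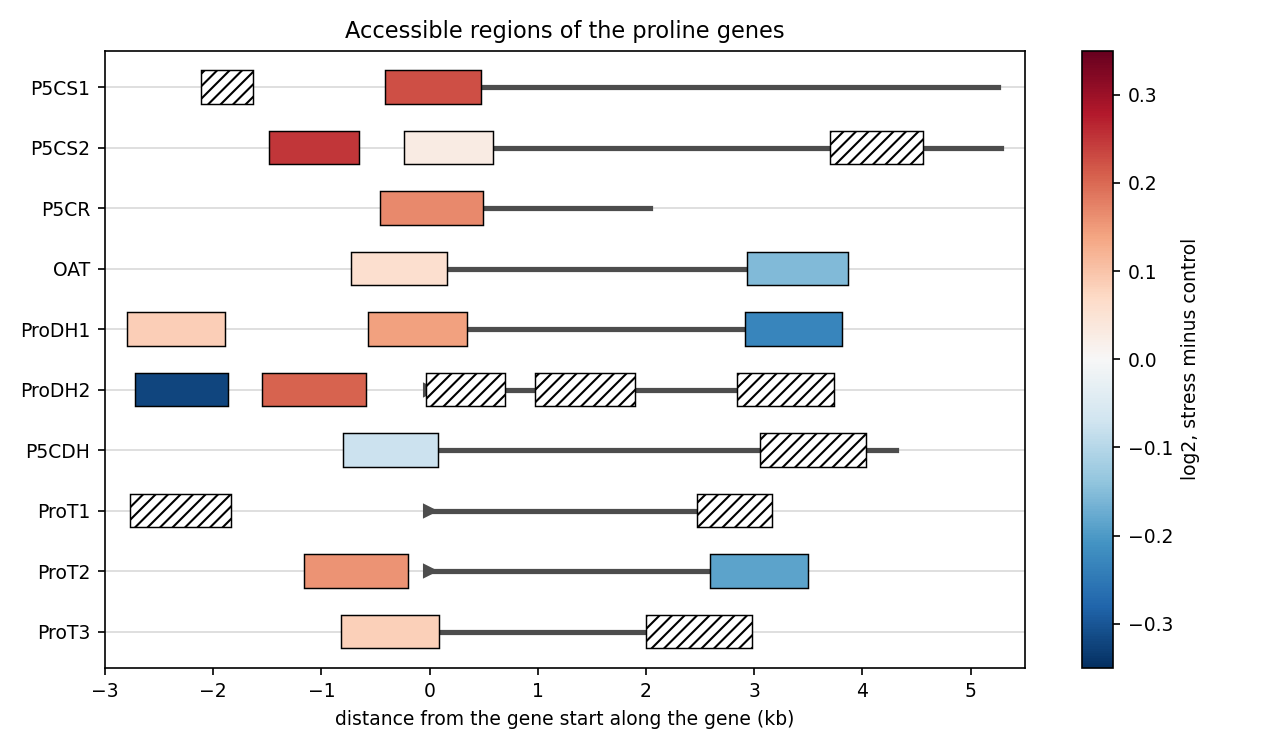
Position of all 24 regions along the 10 genes, as distance from the gene start in kb, with upstream to the left and the gene as a dark line. Fill gives the log2 difference, stress minus control (red higher in stress, blue lower), and hatched regions lacked a peak in at least 1 library and were not tested. The 9 tested regions nearest to the start of their own gene are all red or pale red. The tested P5CDH region, which covers the starts of both P5CDH and UBC3, is pale blue.

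The 3 genes of breakdown had a median log2 difference of 0.05, and their regions had values of either sign. ProDH1 encodes the main enzyme that oxidizes proline in mitochondria. Its CPM, summed over its regions and not scaled to their number or width, was the highest of the 9 genes. It was 100.3 and 100.9 CPM in stress and 94.6 and 99.17 CPM in control. The log2 difference was 0.05 ± 0.049 (edgeR adjusted p = 0.539), 0.02 without control replicate 1 and 0.09 without control replicate 2. The sum hides opposite values. Over the start, chr3:12451213-12452128, CPM was 83.05 and 83.9 in stress and 76.27 and 74.87 in control (log2 difference 0.14 ± 0.050, edgeR adjusted p = 0.154).

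At the 3′ end of ProDH1, chr3:12447742-12448639, CPM was 35.2 and 33.28 in the stress libraries and 39.32 and 41.03 in the control libraries (log2 difference -0.23 ± 0.066, edgeR adjusted p = 0.11). Of the 898 bases of this 3′ region 894 lie outside ProDH1, and the nearest gene start is that of AT3G30770. Without control replicate 1 the difference was 0.16 over the start and -0.26 at the 3′ end. Without control replicate 2 these values were 0.13 and -0.20. The remaining region, chr3:12453449-12454349, lies 2793 to 1893 bases upstream. It had 71.3 and 73.42 CPM in stress and 64.01 and 72.18 CPM in control, and the groups overlapped (log2 difference 0.09, edgeR adjusted p = 0.452). The difference was 0.004 without control replicate 1 (edgeR adjusted p = 0.969) and 0.18 without control replicate 2 (edgeR adjusted p = 0.00263).

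ProDH2, a second proline dehydrogenase, differed between the groups in which peaks had been called. A pair of peaks covered the start and the gene body in both stress libraries and in neither control library. The first, chr5:15501094-15501826, covers the start and 487 coding bases and held 39.11 and 38.76 CPM in stress replicates 1 and 2. The second, chr5:15502101-15503021, lies 975 to 1895 bases into the gene, mostly over introns, and held 56.6 and 53.95 CPM. Since counts exist only inside the peaks of a library, the level in control roots is not known and no fold change can be given. Peaks limited to the 2 stress libraries in this way made up 1124 of the merged regions (4.06%), and peaks limited to the 2 control libraries 229 (0.827%). Of 14978 regions at least as open as the first peak in both stress libraries, 1.53% had no control peak. For the second peak it was 0.842% of 7959. At these heights in both control libraries, 69 of 13394 and 26 of 7001 regions had no stress peak. These shares are a description, and the difference at ProDH2 was not tested. A further region at the 3′ end, chr5:15503962-15504866, had a peak in stress replicate 2 (18.47 CPM) and control replicate 2 (22.83 CPM).

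**Figure D3:**
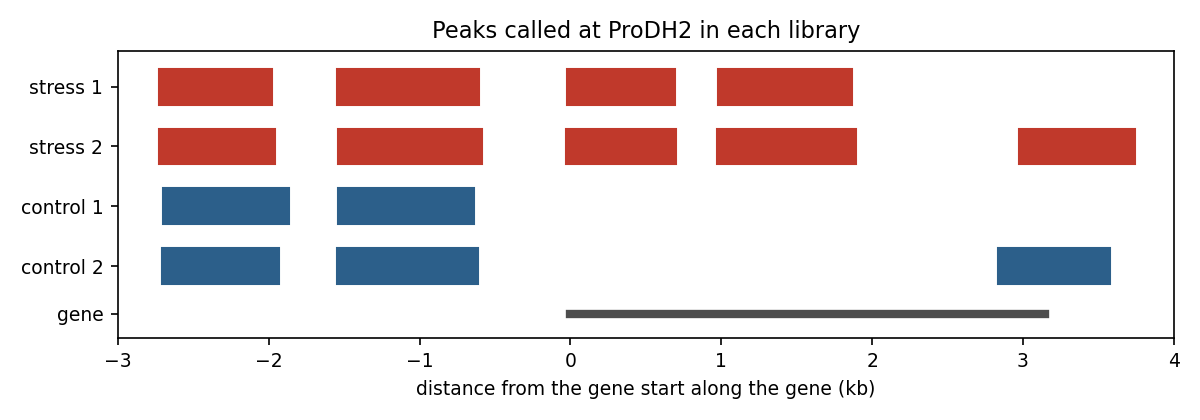
Peaks called at ProDH2 in each library, as distance from the gene start in kb, with the gene as a dark bar. The 2 upstream peaks are present in all 4 libraries, whereas the peaks over the start and in the gene body are present only in stress replicates 1 and 2.

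Only upstream regions of ProDH2 could be tested. The region from 1550 to 589 bases upstream, chr5:15499576-15500537, had 66.6 and 65.83 CPM in stress and 51.32 and 63.15 CPM in control (log2 difference 0.21 ± 0.090, edgeR adjusted p = 0.221). The region before it, chr5:15498399-15499259, had 15.49 and 18.57 CPM in stress and 23.13 and 19.49 CPM in control (log2 difference -0.32 ± 0.139, edgeR adjusted p = 0.22). It is one of the weakest shared regions, at percentile 0.442 of CPM per kb, and 30.5% of its bases have copies elsewhere. Both depended on control replicate 1. Without it they were 0.07 and -0.19, and without control replicate 2 they were 0.37 and -0.44. Summed over both, ProDH2 had 43.45 and 44.67 CPM in stress and 39.22 and 43.57 CPM in control, which overlap. The log2 difference of this sum was 0.09 (edgeR adjusted p = 0.399), 0.02 without control replicate 1 and 0.17 without control replicate 2.

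P5CDH completes the return to glutamate. Its only tested region, chr5:25103233-25104110, covers its start together with that of the divergent neighbour UBC3, a ubiquitin-conjugating enzyme gene, and the 2 genes therefore have the same values and cannot be told apart. On the gene scale CPM was 36.25 and 39.26 in the stress libraries and 40.51 and 38.66 in the control libraries, and the groups overlapped (gene log2 difference -0.07 ± 0.056, edgeR adjusted p = 0.496). At its 3′ end P5CDH overlaps SRO5, which is read from the opposite strand, over 905 bases, a pair known for small RNAs formed under salt stress. A region there, chr5:25099283-25100260, had a peak in stress replicate 1 (39.54 CPM) and control replicate 2 (49.53 CPM) only and was not tested.

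Promoter letters differed among the breakdown genes. ACTCAT is the core of an element first described in the ProDH1 promoter, where it mediates induction by proline and is bound by group S1 bZIP factors. In windows from 250 bases before to 50 bases after the start, searched on both strands, it was found in 2 of the 10 promoters, ProDH1 and P5CDH, against 15.9% of 37897 promoters. In ProDH1 the match begins 24 bases before the start, and in P5CDH matches begin 117 and 107 bases before it, on opposite strands as the capitals in the second pair of sequences show. Whether the ProDH1 match is the element first described there was not examined. ACGTG, the core of the abscisic acid response element, was found in 3 of 10 promoters (P5CR, ProT1 and ProT3) against 24.6% of all, and CCGAC, the core of the dehydration response element, in 2 of 10 (P5CS2 and P5CR) against 15.3%. None of the 3 motifs contains another. In the central 300 bases of the 15 tested regions, ACTCAT was found in 4, ACGTG in 8 and CCGAC in 4, where 13.9%, 35% and 22.3% of all tested regions held them. A match is a string of letters and was not tested for binding.

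Neither of the 2 testable transport genes passed the test, with log2 differences of 0.02 and 0.09. ProT1, known for its activity in the phloem, had no region with a peak in all 4 libraries. A region before it, chr2:16652807-16653740, had a peak in control replicate 2 alone, at 42.95 CPM, and a region at its 3′ end, chr2:16658050-16658743, which also overlaps WLIM2a, held 25.54 and 24.44 CPM in the stress libraries and 23.78 CPM in control replicate 2, with no peak in control replicate 1. ProT2, the family member known from root epidermis and cortex, had 55.76 and 56.14 CPM in stress and 54.44 and 56.07 CPM in control, a log2 difference of 0.02 ± 0.039 (edgeR adjusted p = 0.813) whose sign turned without control replicate 1.

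Again the sum of ProT2 joined opposite values. Its upstream region, chr3:20694272-20695229, which also overlaps AT3G00920, had 62.89 and 64.93 CPM in stress and 52.39 and 62 CPM in control (log2 difference 0.16 ± 0.079, edgeR adjusted p = 0.27). Its 3′ region, chr3:20698026-20698927, had 42.48 and 41.14 CPM in stress and 50.97 and 44.33 CPM in control (-0.19 ± 0.075, edgeR adjusted p = 0.194), with 92.5% of its bases copied elsewhere in the genome. Without control replicate 1 these values were 0.04 and -0.08, and without control replicate 2 they were 0.29 and -0.29. ProT3, described mainly from aerial epidermis, had 26.4 and 24.11 CPM in stress and 23.43 and 24.02 CPM in control. The gap between the groups was narrow and the log2 difference was 0.09 ± 0.063 (edgeR adjusted p = 0.427). Its tested region, chr2:15345587-15346489, covers the start of ProT3 and also that of AT2G36600, which is closer to the middle of the region. Copies elsewhere in the genome exist for 11.1% of the bases of this region. A region at the 3′ end of ProT3, chr2:15342692-15343675, had a peak in stress replicate 1 (34.82 CPM) and control replicate 1 (40.07 CPM) only.

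Over the 15 tested regions, none had an adjusted p under 0.05, where 1.15% of all 18340 regions did by edgeR, and 7 had an unadjusted p under 0.05 against 23.5% of all. Groups did not overlap in 10 of the 15, beside 58.5% of all regions. Each region was assigned to the nearest gene start, or, where it covered several starts, to the start closest to its middle. The 9 regions assigned to their own proline gene were positive (log2 difference 0.03 to 0.25, median 0.16). Of the 6 regions assigned to another gene 5 were negative (-0.32 to 0.08, median -0.17). Among these 6, the regions of P5CDH (-0.07) and ProT3 (0.08) also cover the start of their own proline gene, so the sign did not simply follow the position. Over all tested regions the signs were nearly even, 9029 positive and 9311 negative. The split was noticed in these values and was not tested.

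**Figure D4:**
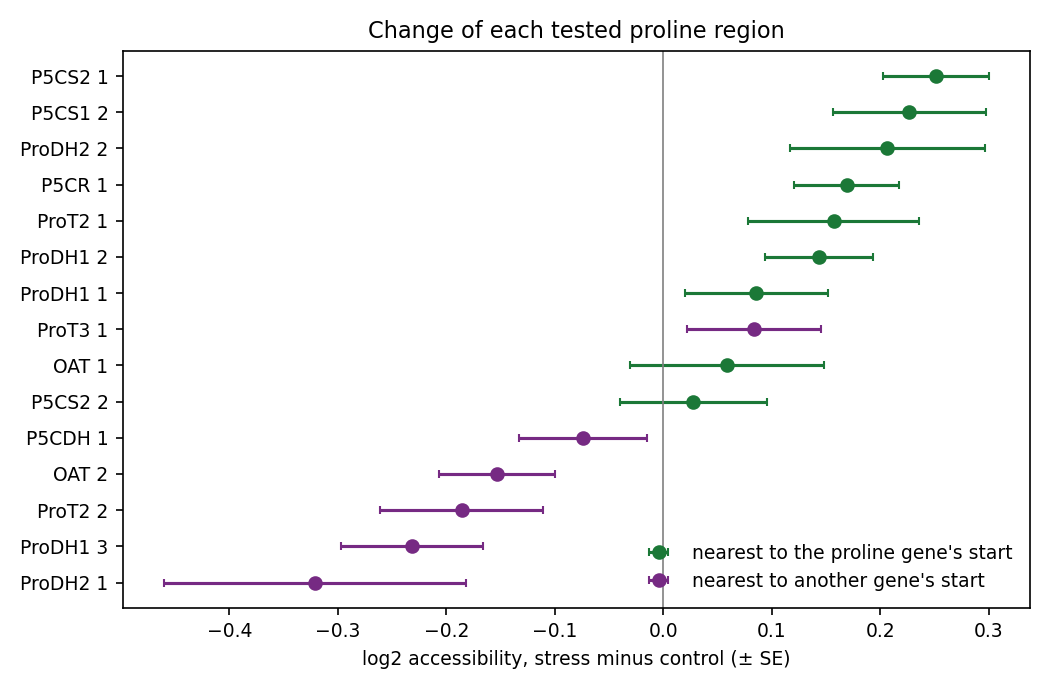
Log2 difference in accessibility, stress minus control, with its standard error for the 15 tested regions, numbered from 5′ to 3′ along each gene. Regions nearest to the proline gene's own start (green) run from 0.03 to 0.25, and those nearest to another gene's start (purple) from -0.32 to 0.08. The tested P5CDH and ProT3 regions, in purple, cover their own gene's start as well, and their middle lies closer to the other start.

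Which calls appeared depended on the control libraries. Without control replicate 1, 3 of the 9 genes passed the threshold (P5CS1, P5CS2 and P5CR) and 6 of the 15 regions, in fits that called 20.3% of all genes and 19.0% of all regions. Without control replicate 2, 5 genes passed (the same 3 with ProDH1 and ProDH2) and 11 regions, where 43.4% of all genes and 43.3% of all regions did. For P5CS1, P5CS2 and P5CR the log2 differences were 0.25, 0.14 and 0.18 without stress replicate 1. They were 0.21, 0.21 and 0.17 without stress replicate 2. With the replicate number as a block on all 4 libraries, P5CS1 and P5CS2 passed as genes and the P5CS2 upstream region passed. That fit called 1940 of all genes and 865 of all regions. DESeq2 on all 4 libraries called 4 of the 15 regions (P5CS1 over the start, P5CS2 upstream, P5CR, and the 3′ end of ProDH1), where it called 12.4% of all regions, and 0 of the 9 genes, where it called 4.47% of all genes.

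**Figure D5:**
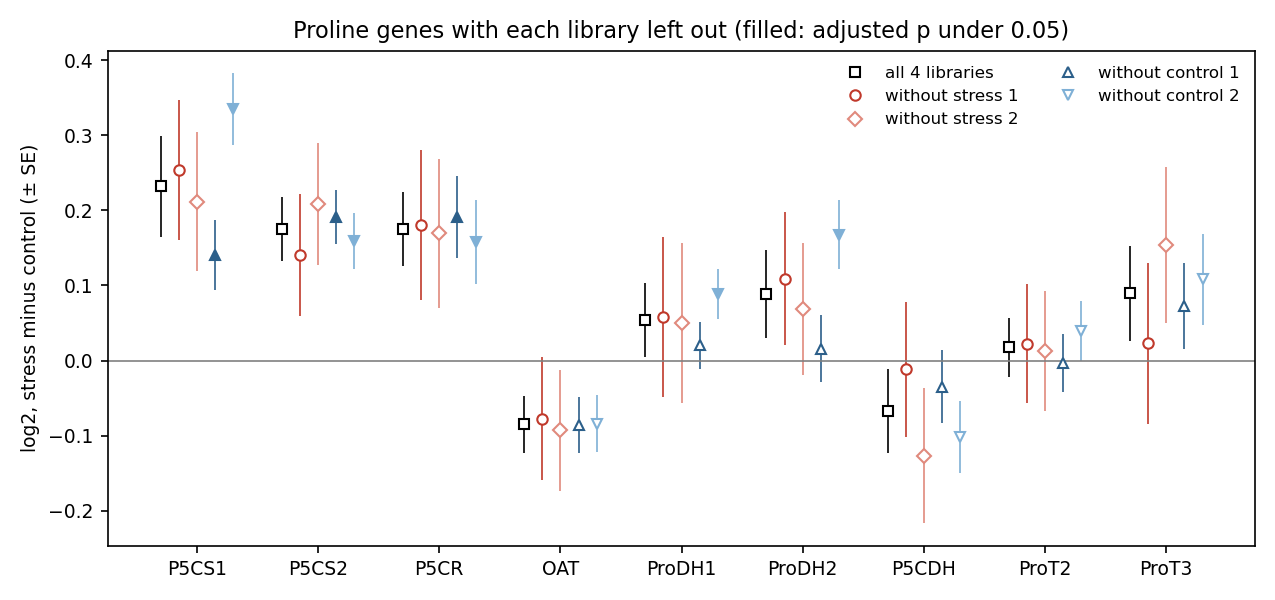
Log2 difference in gene accessibility, stress minus control (± SE), for the 9 testable proline genes with all 4 libraries and with each library left out. P5CS1, P5CS2 and P5CR stay above 0 in every fit. Filled symbols had an adjusted p under 0.05 and occur only where a control library was left out, in the fits that called the largest shares of all genes.

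Genes around the pathway were counted in 4 lists. Of 23 genes, 17 could be tested, and 0 rose and 0 fell at an adjusted p under 0.05 by edgeR, where 0.863% of all genes passed. At an unadjusted p under 0.05 there were 7 of the 17, against 21.8% of all genes, and DESeq2 called 1, in glutamate and arginine metabolism, against 4.47% of all genes. The log2 difference was positive in 15 of the 17, against 49.4% of all genes, with a median of 0.12. All 8 tested group C and S1 bZIP factors, the class that binds ACTCAT, were positive (0.02 to 0.19, lowest edgeR adjusted p = 0.156). For all 8, control replicate 1 was the lowest library, so these signs are not separate observations. Groups of libraries did not overlap for 6 of the 8, beside 57.3% of all genes. Among 4 testable genes of glutamate and arginine metabolism the lowest edgeR adjusted p was 0.0773, for GLT1, the NADH-dependent glutamate synthase that supplies glutamate in roots, and among 2 testable amino acid carriers it was 0.0893, for LHT1, a carrier of neutral amino acids including proline. These 2 genes are named after their values were seen. GLT1 had 111.8 and 110.3 CPM in stress and 95.56 and 92.52 CPM in control, and LHT1 had 28.19 and 26.55 CPM in stress and 23.29 and 22.82 CPM in control.

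Whether the proline genes differed between cell types could not be read from these nuclei. Nuclei were chosen by an excess of fragments at the marker loci of 7 root cell classes, which selected 0.357% to 0.791% of the called nuclei per class and library. At markers held back from the choice, the chosen nuclei had 0.501 to 1.6 times the accessibility of the other nuclei, so the classes are not shown to be those cell types. Between chosen and other nuclei 0 of the 63 tests of proline genes passed by edgeR, where 186 of all 165515 tests did (0.112%), or by DESeq2, where 223 did. At an unadjusted p under 0.05 edgeR gave 7 of the 63, against 5.61% of all tests. Between stress and control within the chosen nuclei, edgeR called 0 of 63 for proline genes and 0% of all 152096 tests, and DESeq2 called 0. At an unadjusted p under 0.05 edgeR gave 7 of the 63, against 5.14% of all tests. Over the 28 sums of chosen nuclei, the genes most like P5CS1 in log2 CPM were AT1G66530, AT1G44740 and AT2G38410 (Pearson r 0.669, 0.658 and 0.611). Those most like ProDH1 were WIT2, HEMA2 and MPK10 (0.719, 0.613 and 0.613). These were the highest correlations among 17446 genes, over sums that share 4 libraries and are shallow, and are given as a description.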

How the data were processed

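Per the labels, the authors used TAIR10 and Cell Ranger ARC 2.0.2, and deposited, for each library, a peak list and a matrix of raw counts over all barcodes. The authors' peaks are those of single libraries, and outside its own peaks a library has no count. The deposited ATAC counts were whole numbers, 73.7% to 75.9% of them even, and were taken as cut sites. Barcodes were called nuclei if their ATAC counts lay between 1000 and 100000 and their RNA counts between 1000 and 25000, as in the study. Further limits of the study need fragments and were not applied. Far more nuclei were left than the study kept, so most of them were not among the nuclei of the study. The cause was not tested, and no doublet caller was run. Library sums, shares of nuclei, chromosome shares, gene pairs and marker classes all rest on this larger set. Peaks were merged across libraries where they overlapped or touched, and coordinates are 1-based. Gene positions came from RefSeq TAIR10.1; 61.0% to 64.6% of peaks lay at a gene start, and no more than 25.6% did once moved by 10000 bases.

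For each library, counts were summed over called nuclei in regions with a peak in all 4 libraries, and per gene over its body and 2 kb upstream, so that neighbouring genes can share a region. Stress was compared with control over 2 libraries each by edgeR 4.0.16 (quasi-likelihood, TMM, filterByExpr, two-sided, Benjamini-Hochberg over all features, threshold 0.05). CPM are scaled by library size after TMM, separately for regions and genes, and standard errors come from the F statistic. A tested region had a median of 2437 counts in a library. On simulated data the tests recovered only a minority of 1.2-fold changes. The absence of a call therefore does not show that a proline gene was unchanged. Alternatives were DESeq2 1.42.0, other scalings, filters, nuclei, windows and libraries. Copies elsewhere were found with blastn 2.17.0. Nuclei joined a marker class at a Poisson p under 0.01.

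All 10 genes and all their regions are named; genes of the pathway lists are named if past the threshold, and otherwise where stated. The members, lists and motifs were chosen with earlier results of these data known.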

Additional observations from a re-analysis of the deposited data

How the results depend on the processing

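In most of the 15 or 16 alternatives per gene the proline genes kept their sign, and no proline gene or region passed the threshold outside the fits named here. With all merged regions P5CS1 as a gene was 0.004 and ProDH2 1.03, with no adjusted p under 0.05. DESeq2 called 2270 regions (1454 higher and 816 lower in stress) where edgeR called 210 (170 and 40), and 1057 genes (791 and 266) where edgeR called 204 (156 and 48); of the proline regions it called 4. With library totals 59 regions and 74 genes were called, without the top 5% of nuclei 106 and 60, and with all merged regions 0 and 0, where libraries without a peak count as 0. A peak width offset gave 425 regions and a minimum of 50 CPM gave 39. Leaving out 1 library gave 36 to 7947 regions and 133 to 10257 genes, with 0 to 11 proline regions and 0 to 5 proline genes. The cause was not tested. When 1 group has a single library, that library is assumed to vary like the others.

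For nuclei chosen by marker loci against other nuclei, 186 calls became 51 at a Poisson p under 0.001 and 104 with no library block, and 114 to 193 with 1 library left out. Within the chosen nuclei the count of 0 calls between stress and control became 4 to 94 with 1 library left out.

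Whether the replicate numbers of the labels pair the samples is not known, and the main fits used no replicate block. Over 18340 regions the difference between replicates 1 and 2 correlated at -0.00946 between stress and control. This cannot exclude pairing, because the 2 stress libraries correlated at 0.990 and differed little. With the replicate block 865 regions and 1940 genes were called, among them 1 proline region (P5CS2 upstream) and 2 proline genes (P5CS1 and P5CS2), and within the chosen nuclei 19.

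Signs turned in these cases. With 1 library left out, the log2 difference ran from -0.044 to 0.096 for the start region of P5CS2, from -0.044 to 0.164 for that of OAT and from -0.003 to 0.039 for ProT2 as a gene. With the peak width offset the 3′ region of OAT was 0.057 and the ProT3 region was -0.055. As a gene, OAT was 0.062 both with the promoter window and with the nearest start only, and with all merged regions ProT2 was -0.011 and ProT3 was -0.027.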

Other observations

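The share of a nucleus's fragments that fell on a given chromosome varied far more between nuclei than the counts would give. Over the 5 chromosomes the variance was 18.1 to 27.7 times the binomial value in the stress libraries, 28.5 to 39.5 times in control replicate 2 and 45 to 120 times in control replicate 1. For chromosome 2, which carries P5CS1, ProT1 and ProT3, the middle 90% of nuclei ran from 10.6% to 26.1% of fragments in stress replicate 1 and from 10.1% to 37.6% in control replicate 1.

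Pairs of proline genes were counted in the same nuclei. Nuclei with a fragment at both genes, relative to the number given by each gene's rate and the depth of each nucleus, were 1.02 times in both stress libraries and 0.979 and 1.02 times in control replicates 1 and 2 for the 10 pairs on the same chromosome. For the 26 pairs on different chromosomes they were 0.991 and 0.998 times in stress replicates 1 and 2 and 0.951 and 0.987 times in control replicates 1 and 2. No pair of proline genes exceeded 1.11 times in any library, the highest being a pair on different chromosomes. These values are a description, and what sets them was not tested.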
